A study of Mus musculus with 49 samples.

Results

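Collagen chain genes encode the polypeptides that wind in triplets into the collagens of connective tissue. They were taken as every gene whose mouse symbol reads Col, a type number, a and a chain number. By that rule 44 of the 24475 gene IDs in each table are collagen chain genes. They fall into 11 fibrillar chains, 6 chains of type IV, the collagen of basement membranes, and 27 chains of other types. The rule reads gene names alone and used no measured value.

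Fibrillar collagens are made as procollagens, chiefly by fibroblasts, trimmed outside the cell and cross-linked by lysyl oxidases into fibrils. Type I, built from the Col1a1 and Col1a2 chains, and type III, built from Col3a1 alone, are the main fibrils of dermis and of the gut wall, and type V chains start such fibrils. Type IV chains do not form fibrils but a sheet under epithelia and around vessels. The Col4a1 and Col4a2 chains form the network found in nearly all basement membranes, while Col4a3 to Col4a6 form networks restricted to certain tissues, Col4a5 and Col4a6 among them in skin and smooth muscle. Among the other types, type VI makes beaded filaments, type VII anchors the epidermis to the dermis, and type XVII is a membrane protein of basal keratinocytes in the same junction. In skin and colon these proteins carry the mechanical strength of the tissue and the attachment of its epithelium.

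RNA was sequenced from skin and colon of mice that the labels call a DITRA model, after the human deficiency of the interleukin-36 receptor antagonist, on a background of 75% C57BL/6NTac and 25% 129S6/SvEvTac that every group shares. The labels name no allele and give no age. Skin was taken from mice given imiquimod (IMQ), a skin irritant that activates Toll-like receptors, and injected with anti-IL-36R, which binds the human receptor for interleukin-36 (7 libraries), with anti-IL-12p40, raised against the p40 chain of mouse interleukin-12 (7 libraries) or with phosphate-buffered saline (PBS, 6 libraries), and from mice given water and PBS (3 libraries). Colon was taken from mice given dextran sulfate sodium (DSS), which injures the colonic epithelium, with anti-IL-36R (8 libraries), anti-IL-12p40 (7 libraries) or PBS (6 libraries), and from mice given water and PBS (5 libraries). Interleukin-23 shares the p40 chain. The labels do not say which receptor allele the mice carry. Tissue, inducing agent and sample series differ together between the skin and colon libraries and cannot be told apart.

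Skin libraries summed to between 14.72 M and 19.68 M expected counts and colon libraries to between 15.08 M and 18.66 M (M is 1000000). The 6 keratinocyte markers summed to 28792 to 67550 counts per 1000000 (CPM) in every skin library, and 6 markers of colon epithelium summed to 1809 to 7771 CPM in every colon library, as the tissue labels say. Colon libraries of DSS and PBS replicates 5 and 6 stood apart from the other DSS PBS libraries. Their leukocyte marker sums were 924 and 877 CPM against 281 to 348 CPM in the other 4, their epithelial sums were the lowest of all colon libraries at 3350 and 1809 CPM, and replicate 6 held 2666 CPM of keratinocyte markers, where no other colon library passed 28.8 CPM. Colon results are therefore given with and without these libraries, except for the cell type markers, which were not refitted. Colon water replicate 4 also stood apart in some markers. It held 273 CPM of Rgs5 and 187 CPM of Cdx2, against at most 82.1 and 60.7 CPM in the other water libraries. In skin, the IMQ PBS replicates 1 to 3 carry title numbers next to those of the water controls and replicates 4 to 6 title numbers next to those of the anti-IL-36R group, so the skin results are also given with each set of 3 alone.

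The stretches before 4 collagen gene starts are shown first, because the results return to them: Col1a2 and Col3a1 changed in opposite directions in the 2 tissues, and Col4a5 and Col4a6, which lie head to head on chromosome X, were lower together in skin. The sequences are RefSeq windows of build GRCm38.p6, 250 bases before the annotated start less any bases annotated as untranslated, written 5′ to 3′ on the gene's strand. Capitals mark the TATA motif TATAAA, the CCAAT motif and the GC box GGGCGG, each searched on both strands and counted without regard to the others, so that matches could overlap.
Col1a2, chr6:4505368-4505492, plus strand: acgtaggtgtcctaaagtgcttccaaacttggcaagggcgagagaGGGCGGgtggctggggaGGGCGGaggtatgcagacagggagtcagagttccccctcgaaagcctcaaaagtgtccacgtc
Col3a1, chr1:45311288-45311537, plus strand: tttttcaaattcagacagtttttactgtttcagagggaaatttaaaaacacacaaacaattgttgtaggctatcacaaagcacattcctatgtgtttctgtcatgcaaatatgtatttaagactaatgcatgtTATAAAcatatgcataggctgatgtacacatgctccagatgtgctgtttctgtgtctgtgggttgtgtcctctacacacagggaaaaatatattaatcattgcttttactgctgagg
Col4a5, chrX:141475169-141475384, plus strand: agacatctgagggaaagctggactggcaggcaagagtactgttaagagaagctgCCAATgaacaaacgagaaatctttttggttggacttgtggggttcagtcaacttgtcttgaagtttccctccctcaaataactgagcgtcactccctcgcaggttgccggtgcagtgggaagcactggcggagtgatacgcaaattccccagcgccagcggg
Col4a6, chrX:141474077-141474326, minus strand: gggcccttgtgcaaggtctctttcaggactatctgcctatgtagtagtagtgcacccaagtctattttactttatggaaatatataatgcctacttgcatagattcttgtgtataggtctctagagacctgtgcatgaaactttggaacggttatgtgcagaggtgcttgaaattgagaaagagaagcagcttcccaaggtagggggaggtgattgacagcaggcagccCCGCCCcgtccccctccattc

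The Col1a2 window holds 2 GC boxes, the Col3a1 window 1 TATA motif, the Col4a5 window 1 CCAAT motif and the Col4a6 window 1 GC box on the opposite strand. Over the 38 windows of 35 collagen chain genes in the table, 57.9% hold a GC box, 34.2% a CCAAT motif and 13.2% a TATA motif. Over all 32851 windows the shares are 32.7%, 33.9% and 12.4%. The 3 type IV gene pairs are each transcribed away from a shared stretch, measured here from 1 annotated start per gene. On that measure the starts of Col4a1 and Col4a2 overlap by 22 bases. Between those of Col4a4 and Col4a3 on chromosome 1 lie 71 bases, and between those of Col4a6 and Col4a5 lie 1308 bases. Full annotated spans can reach further: that of Col4a4 ends at 82587034 and so overlaps that of Col4a3, which starts at 82586921. A motif match is a run of letters and was not read as a binding site.

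Collagen RNA took a smaller share of the library in inflamed skin and a larger share in inflamed colon than in the water controls. The 44 genes together held 1.09 ± 0.294% of expected counts in IMQ PBS skin (SD, n = 6) and 2.26 ± 0.74% in water PBS skin (n = 3), with no overlap between 0.615 to 1.41% and 1.72 to 3.10%. In colon they held 1.22 ± 0.604% with DSS and PBS (n = 6) and 0.409 ± 0.0949% with water and PBS (n = 5), again without overlap. Fibrillar chains made up most of both differences, at 0.696 ± 0.243% in IMQ PBS skin against 1.73 ± 0.629% in water PBS skin, and at 0.776 ± 0.412% in DSS PBS colon against 0.22 ± 0.0573% in water PBS colon. Type IV chains held nearly equal shares in IMQ PBS and water PBS skin, 0.0839 ± 0.021% and 0.0818 ± 0.0178%, but 0.207 ± 0.102% in DSS PBS colon against 0.0615 ± 0.0135% in water PBS colon. In these bulk samples, fewer cells of a type and less RNA per cell cannot be told apart.

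**Figure D1:**
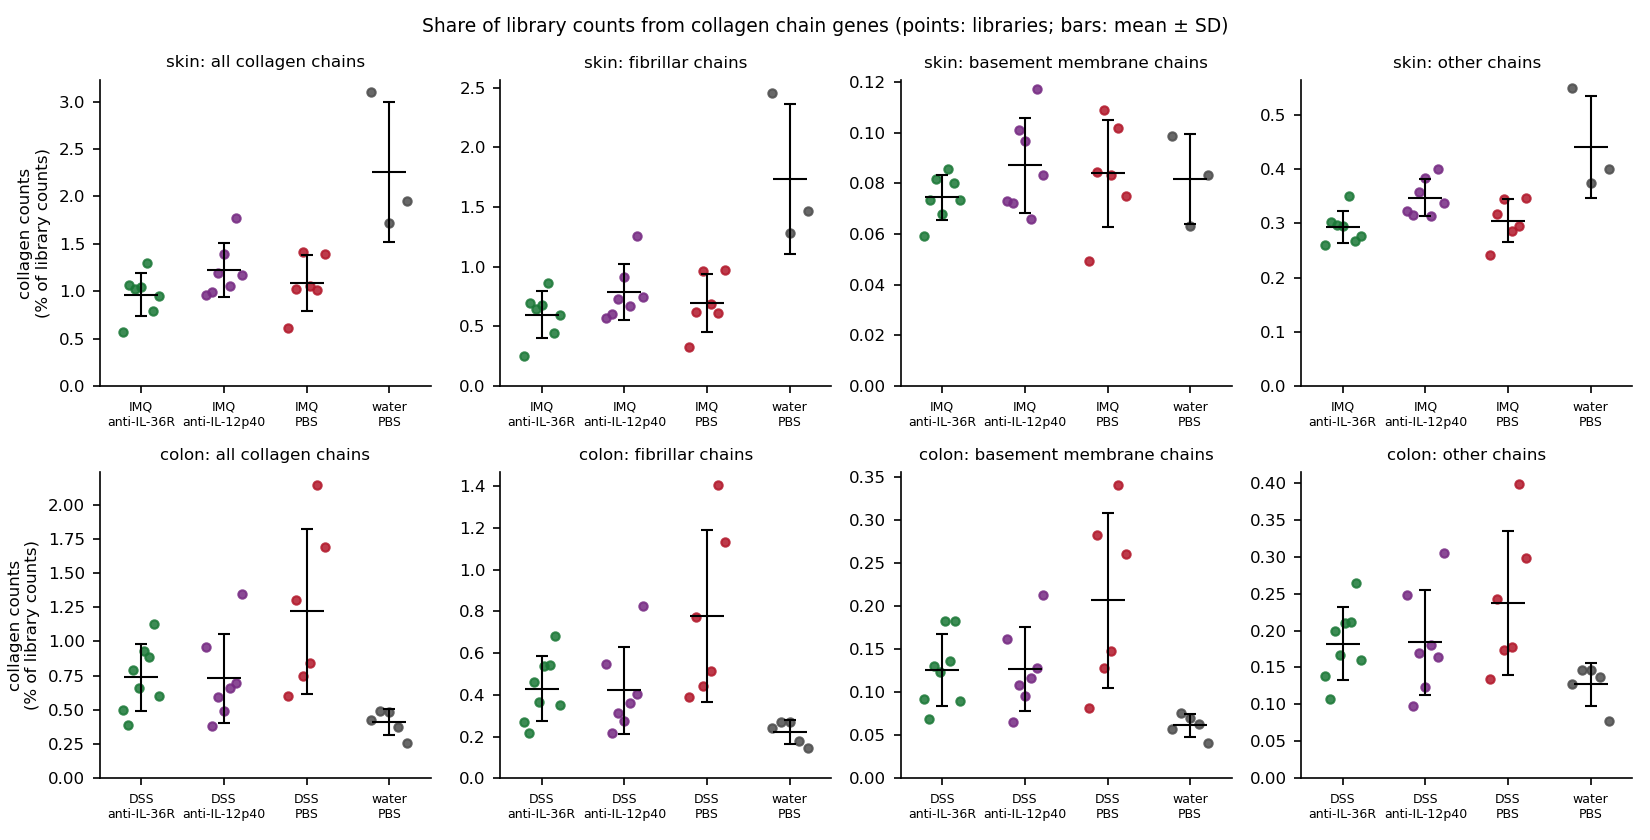
Share of each library's expected counts held by all collagen chain genes, by fibrillar, by type IV and by other chains, in skin and colon; each point is a library, and the line and bar give the mean and SD. All 6 IMQ PBS skin libraries, at 0.615 to 1.41%, lie below the 3 water PBS libraries, at 1.72 to 3.10%, while DSS PBS colon libraries reach 2.14% against at most 0.492% with water.

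Per kilobase of exon, Col3a1 was the most abundant collagen chain in all 8 groups. It reached 324 ± 107 CPM per kb in IMQ PBS skin and 693 ± 214 in water PBS skin, and Col1a1 followed at 250 ± 78.1 and 644 ± 278. In colon Col3a1 stood at 400 ± 211 CPM per kb with DSS and PBS and 118 ± 33.2 with water and PBS. The chain next in order differed there: Col1a1 with DSS and PBS, at 186 ± 94.5, ahead of Col4a1 at 167 ± 83.2, but Col6a1 with water and PBS, at 70.3 ± 14.1, ahead of Col4a1 at 46.3. Taken as mean ± SD, the ranges of Col3a1 and Col1a1 overlapped in IMQ PBS skin, water PBS skin and DSS PBS colon, as did those of Col1a1 and Col4a1 in DSS PBS colon. In water PBS colon those of Col3a1, Col6a1 and Col4a1 lay just apart. Col17a1 was among the leading chains in skin, at 134 ± 23.4 CPM per kb with IMQ and PBS, and was not among the 8 leading chains in colon.

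The mix of chains shifted along with the total. Col1a1, Col1a2 and Col3a1 together made up 57.3 ± 5.89% of collagen counts in IMQ PBS skin and 71.0 ± 2.53% in water PBS skin, while Col4a1 with Col4a2 made up 7.79 ± 1.5% and 3.53 ± 0.467%. In colon the same 3 fibrillar chains made up 54.5 ± 3.46% with DSS and PBS and 44.8 ± 4.06% with water and PBS. There the 6 type VI chains made up 10.4 ± 2.31% with DSS and PBS and 19.5 ± 2.18% with water and PBS. These parts sum within a library, so a gain in one share is a loss in the others.

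In skin, imiquimod with PBS was set against water with PBS by a quasi-likelihood test over 15345 genes, in which a gene is called at a Benjamini-Hochberg adjusted p under 0.05. Of the 36 collagen chain genes tested, 2 rose and 21 fell, 23 in all, where 33% of all genes tested were called, 15.5% higher and 17.5% lower. The median log2 fold change was -0.92 over the 36 collagen genes and -0.03 over all genes tested. All 36 would have passed the filter on low counts without the libraries of their highest group. The other 8 collagen genes, Col2a1, Col9a1, Col9a2, Col10a1, Col19a1, Col22a1, Col25a1 and Col26a1, were too low in skin to test.

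Fibrillar chains fell in skin, 9 of the 10 tested, with a median log2 fold change of -1.14. Col1a1, the first chain of type I, ran at 930, 1511 and 2317 CPM (lowest, median and highest) in IMQ PBS skin, against 6323, 3311 and 3040 CPM in the 3 water PBS libraries. Its partner Col1a2 ran at 943, 1581 and 2248 CPM in IMQ PBS skin, against 5972, 3502 and 3820 CPM in water PBS skin. Col3a1, the type III chain, ran at 1664, 2989 and 4554 CPM in IMQ PBS skin, against 9223, 5477 and 5713 CPM in water PBS skin. All 3 genes were lower in every IMQ PBS library than in any water PBS library, and the first water library was the highest for each. The log2 fold changes were -1.36 ± 0.328 for Col1a1 (adjusted p = 0.00388), -1.41 ± 0.272 for Col1a2 (adjusted p = 0.00093) and -1.10 ± 0.318 for Col3a1 (adjusted p = 0.0124; each ± is the SE).

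The type V chains, which set fibril diameter, fell too, by 1.02 ± 0.283 for Col5a1, 0.71 ± 0.231 for Col5a2 and 1.03 ± 0.25 for Col5a3 on the log2 scale, with adjusted p of 0.00957, 0.0226 and 0.00413. Among the less abundant fibrillar chains, Col11a1, a type XI chain best known from cartilage, ran at 0.949, 2.88 and 3.65 CPM in IMQ PBS skin against 25.1, 17 and 7.49 CPM in water PBS skin. Its log2 fold change of -2.67 ± 0.6 (adjusted p = 0.00253) was the largest of any collagen gene in that contrast. Markers of cartilage and bone summed to 0.63 to 1.71 CPM in IMQ PBS skin and 2.14 to 13.6 CPM in water PBS skin. Of these markers, Acan alone held 12.8, 7.94 and 0.563 CPM in the 3 water libraries. Acan and all 5 hair follicle markers, like Col11a1, were highest in the first water library and lowest in the third. Krt71, for example, held 98.7, 48.3 and 0.845 CPM. The part of either marker set in the Col11a1 difference was not tested. Col27a1, the type XXVII chain, ran at 3.22, 6.24 and 9.32 CPM in IMQ PBS skin against 26.9, 14.9 and 11.4 CPM in water PBS skin, a log2 fold change of -1.45 ± 0.332 (adjusted p = 0.00287). The groups did not overlap for either gene. Col24a1 fell by 1.19 ± 0.364 (adjusted p = 0.0168), and Col11a2, at -0.49 ± 0.297 (adjusted p = 0.209), did not pass the test.

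**Figure D2:**
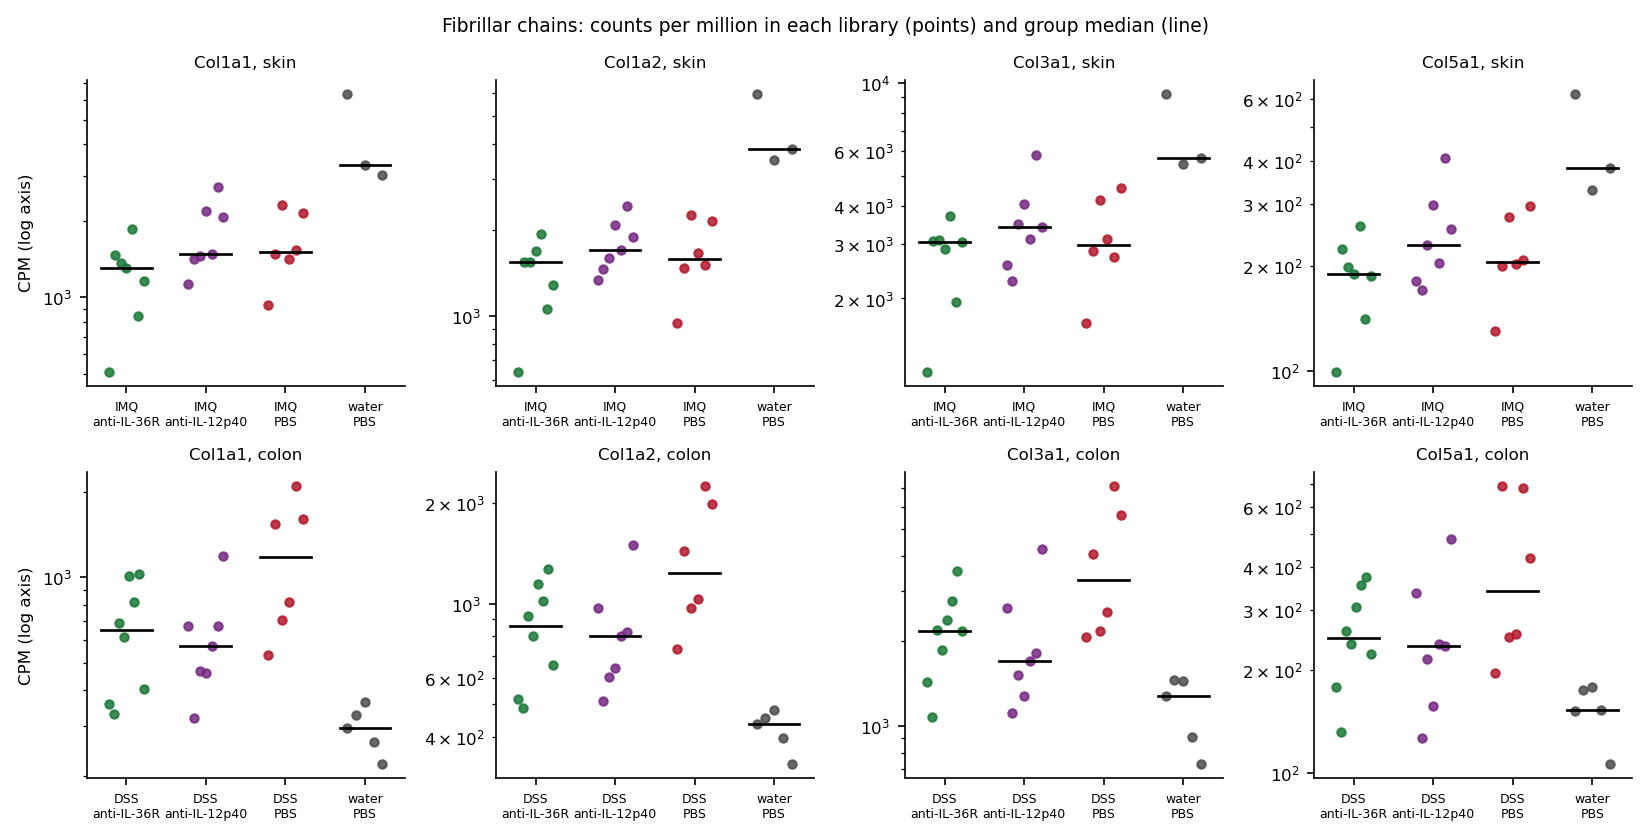
CPM of Col1a1, Col1a2, Col3a1 and Col5a1 in each skin and colon library on a log axis, with a line at the group median; groups run from anti-IL-36R and anti-IL-12p40 to PBS and water. In skin the water libraries lie above all IMQ PBS libraries for these genes (Col1a1 3040 to 6323 against 930 to 2317 CPM), and in colon they lie below all DSS PBS libraries (Col1a1 219 to 364 against 532 to 2098 CPM).

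Some of the markers that define fibroblasts were lower along with the fibrillar chains. The 8 fibroblast markers summed to 885 to 2038 CPM in IMQ PBS skin (median 1840) and 1802 to 3068 CPM in water PBS skin (median 2315), with overlap. Lum, Pi16, Dpt and Thy1 fell, 4 of the 8, and none rose, where 17.5% of all genes tested fell and 15.5% rose. The other 4, Pdgfra, Dcn, Mfap5 and Fbln1, were not called, and their groups overlapped. Fbln1 ran at 74.6 to 120 CPM in IMQ PBS skin and 77.4 to 100 CPM in water PBS skin. Over the same contrast 4 of 5 endothelial, 3 of 5 leukocyte and 3 of 6 keratinocyte markers rose and 1 leukocyte and 1 keratinocyte marker fell, while hair follicle markers summed to 32.3 to 87.3 CPM in IMQ PBS skin and 19.4 to 384 CPM in water PBS skin. The part of cell composition in the collagen values was not tested.

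The type IV chains split by network in skin. Col4a1 ran at 356, 492 and 647 CPM in IMQ PBS skin against 523, 366 and 428 CPM in water PBS skin, and Col4a2 at 227, 343 and 446 CPM against 373, 252 and 297 CPM. The groups overlapped for both, and neither passed the test, with log2 fold changes of 0.20 ± 0.18 (adjusted p = 0.395) and 0.17 ± 0.194 (adjusted p = 0.526). The other 4 chains, of much lower level, fell. Col4a5 ran at 3.22, 5.48 and 7.26 CPM in IMQ PBS skin against 14.1, 15.1 and 20.4 CPM in water PBS skin. Col4a6 ran at 1.57, 2.88 and 3.77 CPM in IMQ PBS skin against 7.30, 11.1 and 15.9 CPM in water PBS skin. Both were lower in every IMQ PBS library than in any water library, by 1.59 ± 0.29 (adjusted p = 0.000626) and 2.10 ± 0.376 (adjusted p = 0.000563) on the log2 scale.

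Col4a3 and Col4a4, the pair of the kidney and lung network, were lower as well. Col4a3 ran at 0.339, 1.58 and 1.92 CPM in IMQ PBS skin against 4.14, 2.38 and 5.07 CPM in water PBS skin, a log2 fold change of -1.44 ± 0.403 (adjusted p = 0.00989). Col4a4 ran at 0.475, 2.58 and 3.27 CPM in IMQ PBS skin against 5.17, 3.97 and 5.63 CPM in water PBS skin, a log2 fold change of -1.14 ± 0.385 (adjusted p = 0.0276). Groups did not overlap for these genes either, though both lie within a few CPM.

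**Figure D3:**
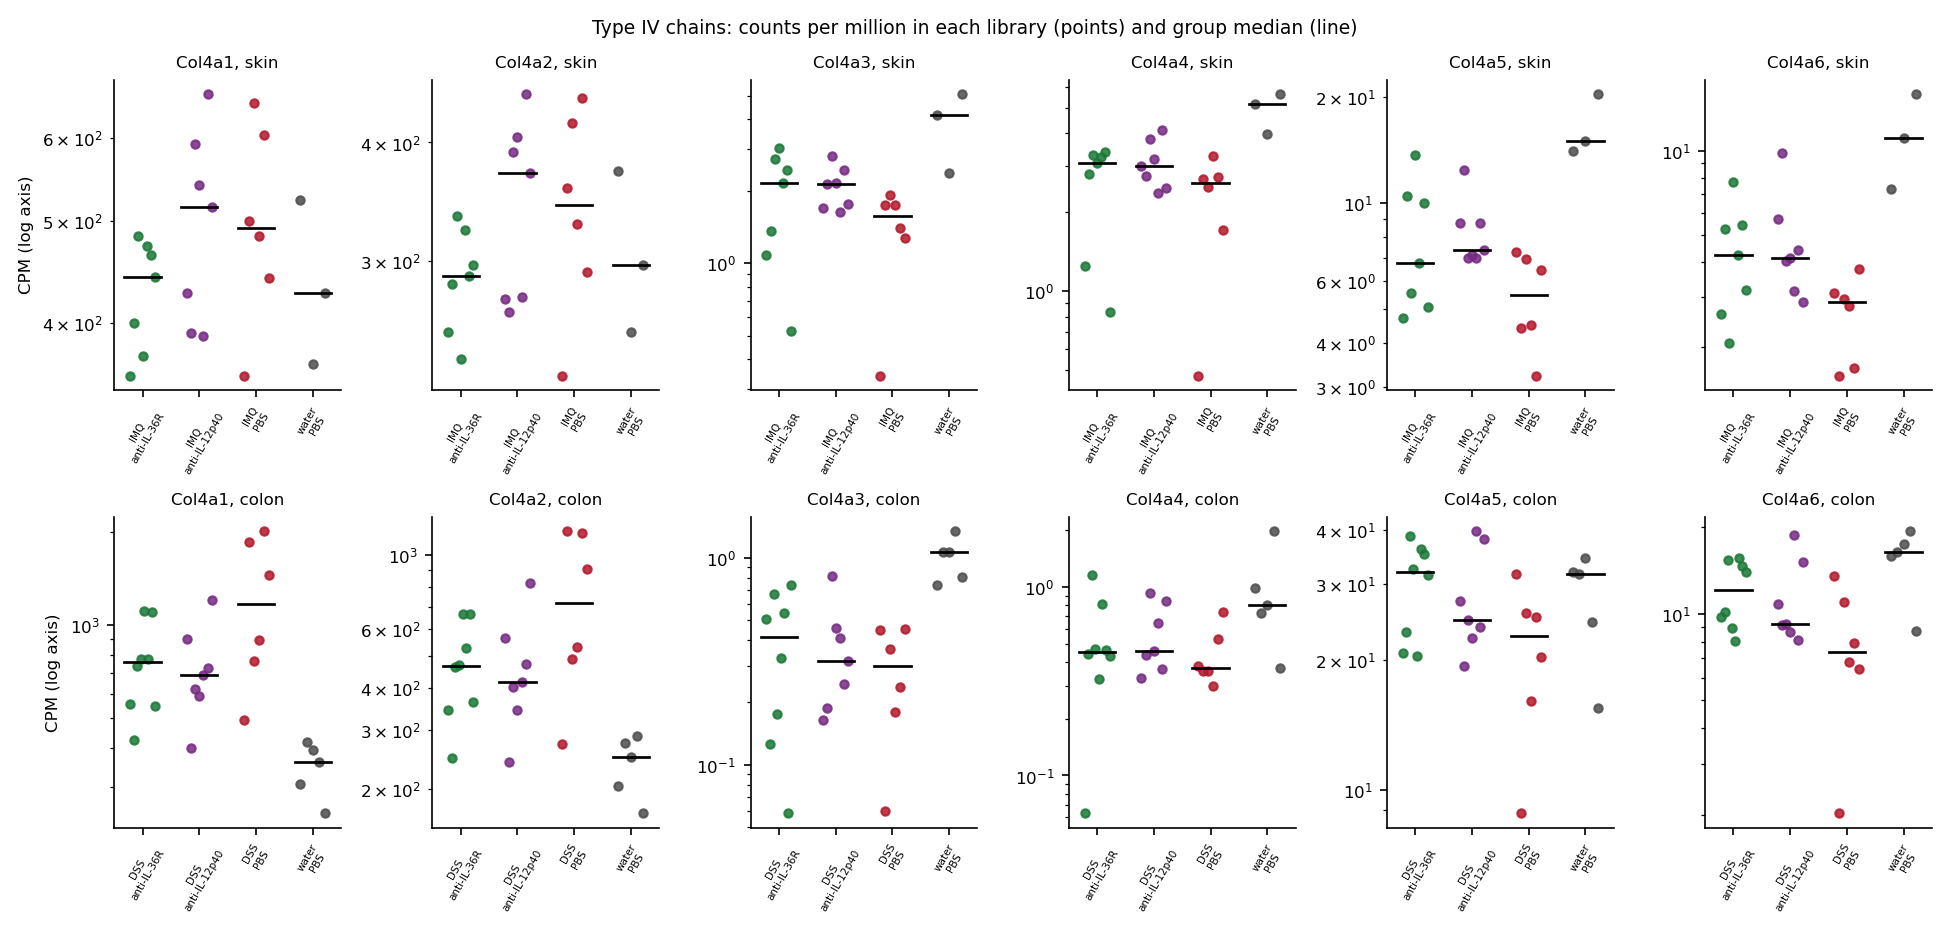
CPM of the 6 type IV chains in each library of skin and colon on a log axis, with lines at group medians. In skin the IMQ PBS and water PBS libraries overlap for Col4a1 and Col4a2 and separate for Col4a3 to Col4a6. In colon all 6 DSS PBS libraries lie above the water libraries for Col4a1 (494 to 2013 against 246 to 420 CPM). They lie below them for Col4a3, which was tested in colon only through its water libraries, so that separation is partly built in.

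Of the 20 chains of other types tested in skin, 2 rose and 8 fell. The 4 type VI chains that fell were Col6a1 (-0.88 ± 0.195, adjusted p = 0.00238), Col6a2 (-0.96 ± 0.199, adjusted p = 0.00146), Col6a3 (-0.52 ± 0.187, adjusted p = 0.0362) and Col6a5. Col6a5 ran at 1.42, 3.58 and 4.57 CPM in IMQ PBS skin against 16.1, 14.5 and 5.01 CPM in water PBS skin, without overlap. Its log2 fold change was -1.81 ± 0.405 (adjusted p = 0.00243), but 95.65% of its skin values were not whole numbers, since Col6a5 shares reads with other genes, and it is less certain for that. Col6a6, with the same share of values not whole, was at -0.91 (adjusted p = 0.0572).

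Col8a2, a short-chain collagen of vessel walls and of the corneal basement membrane, ran at 0.475, 0.941 and 1.77 CPM in IMQ PBS skin against 2.56, 2.91 and 11.8 CPM in water PBS skin. The groups did not overlap, the third water library was far above the other two, and the log2 fold change was -2.36 ± 0.533 (adjusted p = 0.00261). Col16a1, a fibril-associated collagen named here after its values were seen, ran at 78.3, 89.0 and 118 CPM in IMQ PBS skin against 255, 181 and 231 CPM in water PBS skin, a log2 fold change of -1.23 ± 0.17 (adjusted p = 9.45e-05). Its SE was the smallest among the 21 chains that fell, and the groups did not overlap. Col9a3 (-1.93 ± 0.429, adjusted p = 0.00241) and Col15a1 (-0.81 ± 0.27, adjusted p = 0.0261) make up the 8.

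The 2 that rose, also named after their values were seen, are transmembrane collagens. Col13a1, a collagen of cell adhesion sites, ran at 11.1, 14 and 17.6 CPM in IMQ PBS skin against 7.95, 6.61 and 9.07 CPM in water PBS skin, a log2 fold change of 0.84 ± 0.205 (adjusted p = 0.00423). Every IMQ PBS library was above every water library. Col23a1, also anchored in the membrane, was at 55.4 ± 9.93 CPM in IMQ PBS skin and 39.7 ± 4.87 CPM in water PBS skin (SD), a log2 fold change of 0.48 ± 0.16 (adjusted p = 0.0257), with overlap.

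The collagens of the epidermal junction did not pass. Col17a1 ran at 704, 758 and 1076 CPM in IMQ PBS skin against 574, 805 and 848 CPM in water PBS skin (0.12, adjusted p = 0.492). Col7a1, the anchoring fibril chain, ran at 176, 197 and 261 CPM in IMQ PBS skin against 282, 219 and 169 CPM in water PBS skin (-0.09, adjusted p = 0.682). The groups overlapped for both. Counted by library, 20 chains were lower and 2 were higher in all IMQ PBS libraries than in all water libraries, where 26.7% of all genes tested showed no overlap. The 2 were Col13a1 and Col8a1. Col8a1 did not pass the test, and 73.91% of its skin values were not whole.

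The count of falls leaned on which water library was kept. Without water replicate 1, in which fibrillar chains were highest, 15 collagen genes were called, 2 higher and 13 lower, and 4 fibrillar chains passed (Col11a1, Col1a2, Col27a1 and Col5a3), while Col1a1 was at -0.95 (adjusted p = 0.0547) and Col3a1 at -0.81 (adjusted p = 0.0974). Without water replicate 3, 17 were called, the type IV falls were Col4a5 and Col4a6, Col8a2 was at -1.28 (adjusted p = 0.106) and Col4a3 at -1.20 (adjusted p = 0.0712). With IMQ PBS replicates 1 to 3 alone 19 were called, 18 of them lower. With replicates 4 to 6 alone 17 were, of which 15 were lower, and Col3a1 was then at -0.96 (adjusted p = 0.0631). Of 15345 genes tested, 5062 were called in the main fit and 2884 without water replicate 3. In the other settings given here that number stayed within 1.5 times of 5062.

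**Figure D4:**
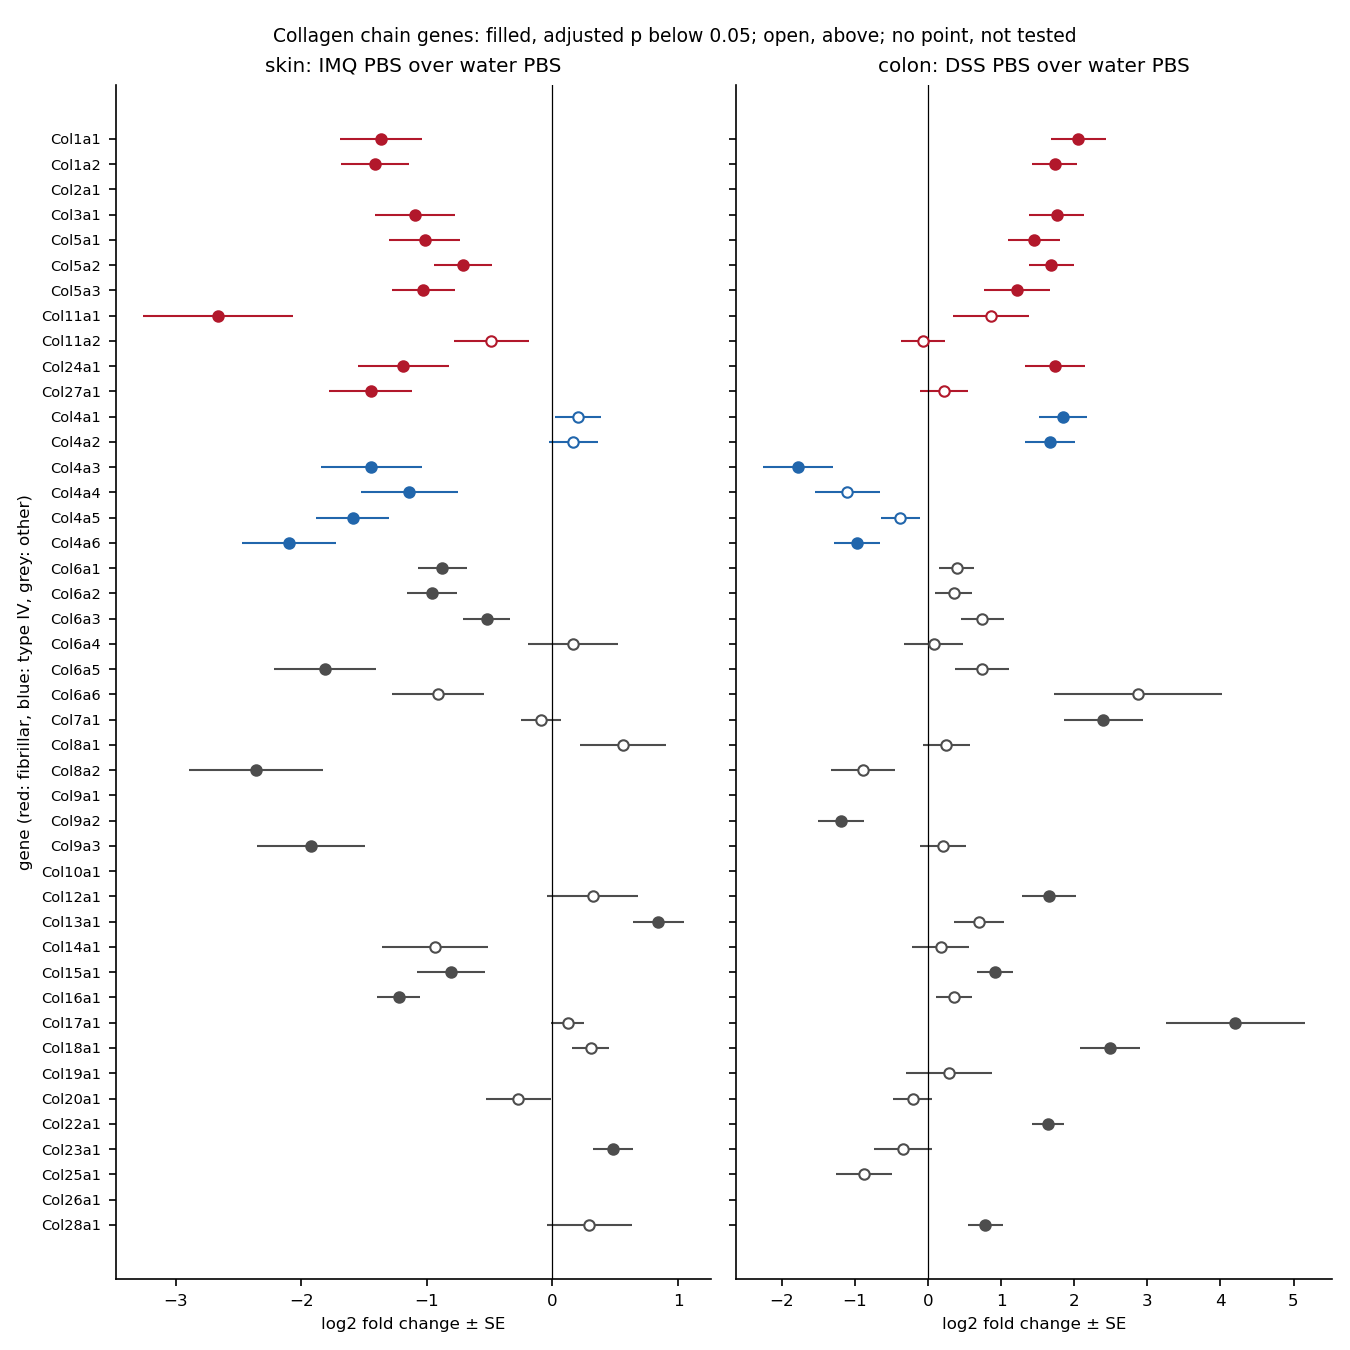
Log2 fold change with its SE for each collagen chain gene tested, in IMQ PBS against water PBS skin and in DSS PBS against water PBS colon; filled points have an adjusted p under 0.05, and colour marks fibrillar, type IV and other chains. Fibrillar points lie left of 0 in skin (median -1.14) and mostly right of 0 in colon (median 1.57).

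Under imiquimod, few collagen genes were called with either antibody, a count near the share over all genes with anti-IL-36R. With anti-IL-36R against PBS, 2 of the 36 passed, where 4.21% of all genes tested did, 3.29% higher and 0.919% lower: Col8a2 rose and Col7a1 fell. Col8a2 ran at 1.04, 4.58 and 7.88 CPM in IMQ anti-IL-36R skin against 0.475, 0.941 and 1.77 CPM in IMQ PBS skin, a log2 fold change of 1.95 ± 0.462 (adjusted p = 0.0188). All but 1 of the 7 antibody libraries were above the highest PBS library. Col7a1 ran at 132, 153 and 164 CPM in IMQ anti-IL-36R skin against 176, 197 and 261 CPM in IMQ PBS skin, a log2 fold change of -0.51 ± 0.125 (adjusted p = 0.0225). There every antibody library was below every PBS library, where 1.34% of all genes tested showed no overlap. Col18a1, whose end piece is endostatin, was at -0.39 ± 0.115 (adjusted p = 0.0523).

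With anti-IL-12p40 against PBS 1 of the 36 passed, again Col8a2, where 8.8% of all genes tested did, 5.31% higher and 3.49% lower. It ran at 2.33, 4.04 and 8.30 CPM in IMQ anti-IL-12p40 skin, above all IMQ PBS libraries as were 3.77% of genes in either direction, a log2 fold change of 1.99 ± 0.461 (adjusted p = 0.0107). The antibody comparisons share the 6 PBS libraries, in which Col8a2 was at its lowest. Neither antibody group differed from water PBS skin in Col8a2 by the test, at -0.41 (adjusted p = 0.611) for anti-IL-36R and -0.37 (adjusted p = 0.686) for anti-IL-12p40.

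Most of these calls were lost with 3 PBS libraries in place of 6, while the Col8a2 estimates stayed near those of the main fit. All genes called fell as well against replicates 1 to 3 and 4 to 6. They went from 646 to 105 and 58 with anti-IL-36R and from 1350 to 437 and 233 with anti-IL-12p40. Against PBS replicates 1 to 3 alone, Col7a1 was at -0.66 with anti-IL-36R (adjusted p = 0.0494), and Col8a2 at 1.96 with anti-IL-36R (adjusted p = 0.123) and 2.0 with anti-IL-12p40 (adjusted p = 0.0857). Against replicates 4 to 6 alone, Col7a1 was at -0.36 (adjusted p = 0.286), Col8a2 at 1.92 (adjusted p = 0.156) and 1.95 (adjusted p = 0.111), so no call was left. The Col7a1 call was also lost without PBS replicate 2 (adjusted p = 0.0638) or antibody replicates 5 or 6 (adjusted p = 0.051 and 0.0539), and the anti-IL-36R call of Col8a2 without antibody replicate 2 (adjusted p = 0.0521).

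No fibrillar or type IV chain passed with either antibody in skin. Col1a1 ran at 508, 1302 and 1852 CPM in IMQ anti-IL-36R skin and at 1134, 1485 and 2729 CPM in IMQ anti-IL-12p40 skin, both overlapping the 930 to 2317 CPM of IMQ PBS skin. The median log2 fold change over the 36 genes was -0.10 with anti-IL-36R and 0.19 with anti-IL-12p40. Set directly against each other, the antibodies differed in no collagen gene by the quasi-likelihood test, where 0.0456% of all genes tested passed (0.013% higher and 0.0326% lower with anti-IL-36R) and 814 had an unadjusted p under 0.05.

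Against water PBS skin, both antibody groups still had low collagen levels. With anti-IL-36R 20 genes were lower and 1 higher, where 13.1% of all genes tested were called, 5.97% higher and 7.17% lower. They included 9 fibrillar chains, among them Col1a1 at -1.80 ± 0.314 (adjusted p = 0.0014), and 5 type VI chains. With anti-IL-12p40 7 were lower, where 4.8% of all genes tested were called, 2.41% higher and 2.39% lower: Col1a1 at -1.25 (adjusted p = 0.028), Col1a2 at -1.31 (adjusted p = 0.00865), Col24a1, Col4a5, Col6a6, Col9a3 and Col16a1. Without water replicate 1, 9 collagen genes were called with anti-IL-36R and 1 with anti-IL-12p40. All genes called fell there too, from 2017 to 706 and from 737 to 123 of 15345 tested. The anti-IL-12p40 count was also 3 or 4 without antibody replicates 3, 5 or 7 and 12 without IMQ PBS replicate 1, which shares the fit. Whether the antibody groups differ in their distance from water is the direct comparison above, in which no collagen gene passed.

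In colon, DSS with PBS was set against water with PBS over 15731 genes. Of the 40 collagen chain genes tested 16 rose and 3 were called lower, 19 in all, where 32.2% of all genes tested were called, 17.6% higher and 14.7% lower. The median log2 fold change was 0.72 over the 40 and -0.03 over all genes tested. Col4a3, Col6a6 and Col19a1 passed the filter on low counts only through the group in which they were highest, so their difference is partly built in. Of these, Col4a3 is among the 3 called lower, and leaving it out 2 fell. Col2a1, Col9a1, Col10a1 and Col26a1 were too low to test.

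Fibrillar chains rose, 7 of the 10 tested, with a median log2 fold change of 1.57. Col1a1 ran at 532, 1184 and 2098 CPM in DSS PBS colon, against 294, 326, 364, 262 and 219 CPM in water PBS colon. Col1a2 ran at 731, 1233 and 2243 CPM in DSS PBS colon, against 438, 456, 480, 397 and 331 CPM in water PBS colon. Col3a1 ran at 2066, 3302 and 7108 CPM in DSS PBS colon, against 1277, 1448, 1438, 907 and 728 CPM in water PBS colon. Every DSS PBS library was above every water library for these 3 genes, and DSS replicate 5 was the highest for each. The log2 fold changes were 2.06 ± 0.377 for Col1a1 (adjusted p = 0.000212), 1.74 ± 0.306 for Col1a2 (adjusted p = 0.000141) and 1.76 ± 0.376 for Col3a1 (adjusted p = 0.000984).

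The type V chains rose with them, Col5a1 by 1.45 ± 0.351 (adjusted p = 0.0029), Col5a2 by 1.69 ± 0.311 (adjusted p = 0.000221) and Col5a3 by 1.22 ± 0.455 (adjusted p = 0.0424). Col24a1, a fibrillar chain of low level, ran at 3.12, 4.71 and 14.2 CPM in DSS PBS colon against 1.91, 1.24, 1.97, 2.97 and 1.81 CPM in water PBS colon, a log2 fold change of 1.73 ± 0.412 (adjusted p = 0.00251). The groups did not overlap, though the lowest DSS library was close to the highest water library. Col11a1 (0.86, adjusted p = 0.214), Col11a2 (-0.07) and Col27a1 (0.22) did not pass.

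Type IV chains moved both ways in colon. Col4a1 ran at 494, 1172 and 2013 CPM in DSS PBS colon, against 308, 420, 394, 361 and 246 CPM in water PBS colon. Col4a2 ran at 272, 720 and 1176 CPM in DSS PBS colon, against 205, 275, 250, 288 and 170 CPM in water PBS colon. The groups were apart for Col4a1, and for Col4a2 the lowest DSS library lay within the water range. Both rose, by 1.85 ± 0.329 (adjusted p = 0.000156) and 1.67 ± 0.34 (adjusted p = 0.000613) on the log2 scale.

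Col4a6 fell in colon, a call lost without DSS PBS replicates 5 and 6 and with the compared groups alone. It ran at 2.03, 7.37 and 13.6 CPM in DSS PBS colon, against 15.8, 16.4, 17.5, 19.3 and 8.73 CPM in water PBS colon, a log2 fold change of -0.97 ± 0.316 (adjusted p = 0.0213), with the last water library inside the DSS range. Col4a3 ran at 0.0596, 0.298 and 0.454 CPM in DSS PBS colon against 0.740, 1.07, 1.07, 1.34 and 0.811 CPM in water PBS colon. Its test is not read as a result, since it was tested in colon only through its water libraries. At these depths 1 count is worth about as much as the lowest of these values. Col4a4 (-1.10 ± 0.444, adjusted p = 0.0592) and Col4a5 (-0.38, adjusted p = 0.285) did not pass. Smooth muscle, whose own sheath holds Col4a5 and Col4a6, had marker sums of 3428 to 5981 CPM in DSS PBS colon (median 4201). In water PBS colon they were 4872 to 10582 CPM (median 6030), the highest being that of water replicate 4. The groups overlapped, 2 of 5 markers were lower, and the part of smooth muscle in the Col4a6 difference was not tested.

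Of the 24 other chains tested in colon, 7 rose and 1 fell. Col18a1, a heparan sulfate proteoglycan of basement membranes, ran at 120, 339 and 692 CPM in DSS PBS colon against 60.4, 73.0, 67.9, 69.2 and 52.5 CPM in water PBS colon, a log2 fold change of 2.49 ± 0.408 (adjusted p = 5.94e-05). Every DSS library was above every water library. Col7a1 ran at 3.69, 14.7 and 35.9 CPM in DSS PBS colon against 2.78, 3.94, 3.52, 3.96 and 3.12 CPM in water PBS colon, a log2 fold change of 2.40 ± 0.545 (adjusted p = 0.00169). Here 1 DSS library lay within the water range, and replicates 5 and 6 were the highest.

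Col17a1 had the largest log2 fold change, 4.20 ± 0.952 (adjusted p = 0.00165), and 1 library set most of its size. The 6 DSS PBS libraries held 1.15, 0.656, 1.74, 1.49, 4.49 and 59.5 CPM, against 0.555, 0.450, 1.01, 0.424 and 0.624 CPM in water PBS colon. Apart from replicate 6 the DSS libraries lay within or a few CPM above the water range. The 6 keratinocyte markers were also highest in replicates 5 and 6: their sum was 1.08, 8.05, 5.17, 5.02, 28.8 and 2666 CPM in DSS PBS colon against 3.11 to 5.23 CPM in water PBS colon. Among replicates 1 to 4 the order of these sums differed from that of Col17a1. In replicate 6 Krt5 reached 1498 CPM and Krt14 1069 CPM, whereas Krt1 stayed at or under 0.397 CPM and Krt10 at or under 2.61 CPM in all DSS PBS libraries. Without replicate 6 Col17a1 was at 1.63 (adjusted p = 0.0169), and without replicates 5 and 6 at 1.03 ± 0.45 (adjusted p = 0.112).

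The remaining chains that rose in colon, named after their values were seen, were Col12a1 (1.65 ± 0.369, adjusted p = 0.00145), which binds type I fibrils, Col15a1 (0.92 ± 0.246, adjusted p = 0.00638), Col22a1 (1.65 ± 0.222, adjusted p = 6.33e-06) and Col28a1 (0.79 ± 0.244, adjusted p = 0.0163). Col22a1, a collagen of tissue junctions, was low but tight: 2.10, 2.55 and 3.07 CPM in DSS PBS colon against 0.863, 0.619, 0.961, 0.565 and 1.06 CPM in water PBS colon, with no overlap. Col9a2, a fibril-associated chain, fell by 1.19 ± 0.317 (adjusted p = 0.00591). No type VI chain passed: Col6a1 was at 404 ± 120 CPM in DSS PBS colon and 308 ± 61.7 CPM in water PBS colon (SD), and Col6a3 at 403 ± 146 and 241 ± 73.5 CPM (log2 fold change 0.74, adjusted p = 0.0573). Col6a6, at 0.0636, 0.240 and 1.53 CPM in DSS PBS colon, was at 0 in 3 of 5 water libraries and did not pass (adjusted p = 0.0585). By library, 9 chains were higher in all DSS PBS than in all water PBS libraries, where 13.1% of all genes tested showed no overlap in either direction. Col4a3 was lower without overlap, but it was tested only through its water libraries, so its separation is partly built in.

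Without DSS PBS replicates 5 and 6, a choice made after seeing their marker sums, 12 collagen genes were called, 11 higher and 1 lower, where 18.9% of all genes were. The 11 were Col1a1 (1.62, adjusted p = 0.00287), Col1a2 (1.32), Col3a1 (1.23, adjusted p = 0.0158), Col4a1 (1.54, adjusted p = 0.00183), Col4a2, Col5a1, Col5a2, Col7a1 (1.47, adjusted p = 0.0372), Col12a1, Col18a1 (2.04, adjusted p = 0.00067) and Col22a1, and Col4a3 was the gene lower. The Col4a3 call is partly built in by the low-count filter and is not read as a result. Col24a1 was at 1.04 (adjusted p = 0.051) in that fit. Fibroblast markers summed to 931 to 3324 CPM in DSS PBS colon, with 3107 and 3324 CPM in replicates 5 and 6, against 659 to 1109 CPM in water PBS colon. In the fit of all libraries, Pi16, Thy1, Dcn, Lum and Pdgfra of the 8 rose. So did 5 of 5 leukocyte, 4 of 5 endothelial and 3 of 5 pericyte markers, where 17.6% of all genes tested rose. The markers were not tested without replicates 5 and 6. Their part in the collagen values was not tested.

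With anti-IL-36R against PBS under DSS, 3 of the 40 collagen genes fell and none rose, where 6.6% of all genes tested were called, 1.16% higher and 5.45% lower. Col17a1 ran at 0.457, 0.902 and 2.15 CPM in DSS anti-IL-36R colon against 0.656, 1.62 and 59.5 CPM in DSS PBS colon, a log2 fold change of -3.54 ± 0.754 (adjusted p = 0.00495). Col24a1 ran at 1.57, 2.22 and 4.12 CPM in DSS anti-IL-36R colon against 3.12, 4.71 and 14.2 CPM in DSS PBS colon, a log2 fold change of -1.38 ± 0.349 (adjusted p = 0.0169). Col12a1 ran at 84.8, 144 and 300 CPM in DSS anti-IL-36R colon against 140, 380 and 765 CPM in DSS PBS colon, a log2 fold change of -1.21 ± 0.314 (adjusted p = 0.0195). The groups overlapped for all 3 genes, and the highest PBS values were those of replicates 5 and 6.

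Type I and III chains did not pass with anti-IL-36R. Col1a1 ran at 330, 653 and 1028 CPM in DSS anti-IL-36R colon against 532, 1184 and 2098 CPM in DSS PBS colon, with overlap (-0.89 ± 0.315, adjusted p = 0.0883). The median over fibrillar chains was -0.76, that over all 40 was -0.12. Col7a1 (-1.40, adjusted p = 0.0572) and Col11a1 (-1.43, adjusted p = 0.0612) lay just outside the threshold. Col22a1, at 1.52, 1.86 and 2.06 CPM in DSS anti-IL-36R colon, was below every DSS PBS library (2.10 to 3.07 CPM), where 0.903% of all genes tested showed no overlap, but did not pass (-0.48, adjusted p = 0.119). With anti-IL-12p40, 0.127% of all genes showed none.

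With anti-IL-12p40 against PBS, Col17a1 alone passed, at -3.18 ± 0.777 (adjusted p = 0.0452), where 1.15% of all genes tested were called, 0.0191% higher and 1.13% lower. It ran at 0.581, 1.09 and 2.39 CPM in DSS anti-IL-12p40 colon, overlapping the 0.656 to 4.49 CPM of the DSS PBS libraries other than replicate 6. Col12a1 was at -1.26 ± 0.327 (adjusted p = 0.0588). The median over fibrillar chains was -0.78. Both antibody comparisons use the same 6 PBS libraries.

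No collagen call in either antibody comparison held without PBS replicates 5 and 6. With anti-IL-36R the number called was 11, 5 and 5 without PBS replicates 1, 3 or 4, 1 without replicate 5 and 0 without replicate 6. All genes called with anti-IL-36R were 1776 without replicate 1 and 437 without replicate 6. The anti-IL-12p40 call of Col17a1 was lost in 22 of 33 alternatives. With anti-IL-36R Col17a1 was then at -0.35 (adjusted p = 0.792), Col24a1 at -0.67 (adjusted p = 0.473) and Col12a1 at -0.71 (adjusted p = 0.41), where 0.661% of all genes were called. With anti-IL-12p40 Col17a1 was at 0.0054 (adjusted p = 0.999) and no gene of any kind was called. Without replicate 6 alone Col17a1 was at -0.97 (adjusted p = 0.263) with anti-IL-36R and -0.61 (adjusted p = 0.8) with anti-IL-12p40. Without replicate 5 alone, Col24a1 and Col12a1 were at -1.02 (adjusted p = 0.0849) and -0.89 (adjusted p = 0.0929) with anti-IL-36R. Without replicate 6 they were at -1.29 (adjusted p = 0.0597) and -1.20 (adjusted p = 0.055).

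**Figure D5:**
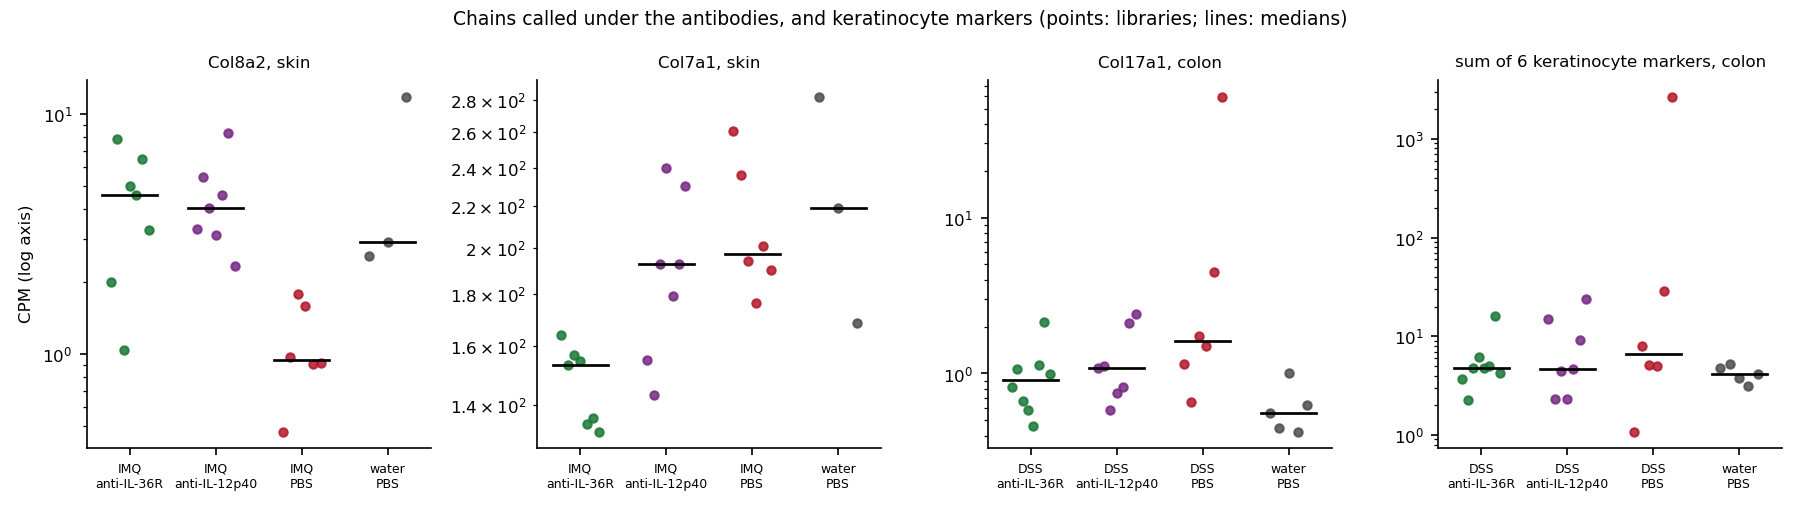
CPM on a log axis in each library for Col8a2 and Col7a1 in skin, Col17a1 in colon, and the sum of 6 keratinocyte markers in colon, with lines at group medians. Col8a2 is lowest in IMQ PBS skin (0.475 to 1.77 CPM), Col7a1 is lower in all anti-IL-36R than in all IMQ PBS libraries, and DSS PBS replicate 6 alone holds both 59.5 CPM of Col17a1 and 2666 CPM of keratinocyte markers.

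Compared with water PBS colon, 7 collagen genes were higher and 1 lower with DSS and anti-IL-36R, where 9.92% of all genes tested were called, 6.92% higher and 3.01% lower. With DSS and anti-IL-12p40, 9 were higher and 1 lower, where 17.2% of all genes were called, 10.8% higher and 6.4% lower. Col18a1 was at 1.84 ± 0.384 (adjusted p = 0.00374) with anti-IL-36R and 1.90 ± 0.391 (adjusted p = 0.00139) with anti-IL-12p40. Col1a1 was at 1.16 (adjusted p = 0.0353) and 1.09, and Col4a1 at 1.13 and 1.09. These groups do not contain the DSS PBS libraries, so their calls of type I and Col4a1 chains do not rest on replicates 5 and 6 as members of a group, although all 4 groups share 1 estimate of spread. The counts were small and moved with single libraries. With 1 library left out, all genes called ran from 975 to 1846 with anti-IL-36R and from 1986 to 3112 with anti-IL-12p40. With anti-IL-36R 2 to 4 genes were called without water replicates 1, 2, 3 or 5 or antibody replicates 5, 6 or 7. With anti-IL-12p40 3 to 5 were called without the same water replicates or antibody replicates 1, 6 or 7. The antibodies set against each other differed in 0 collagen genes and 0 genes of any kind by the quasi-likelihood test, with 552 of all genes at an unadjusted p under 0.05.

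The skin and colon disease effects were set against each other as an interaction term, fitted over the libraries of both tissues, with 41 collagen genes tested. A negative value means a lower effect in skin than in colon. The difference passed for 24 of the 41, all negative, where 22.3% of all genes tested passed, 8.95% positive and 13.4% negative. The median difference was -1.52 over the 41 and 0.01 over all genes. Of the fibrillar chains 9 of 10 passed, of the type IV chains 3 of 6, and of the others 12 of 25.

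The differences in the main fibrillar chains were -3.36 ± 0.511 for Col1a1 (adjusted p = 6.66e-06), -3.09 ± 0.42 for Col1a2 (adjusted p = 1.09e-06) and -2.79 ± 0.505 for Col3a1 (adjusted p = 8.91e-05). Among type IV chains Col4a1 (-1.59), Col4a2 (-1.45) and Col4a5 (-1.17) passed. Col17a1 (-4.02 ± 0.942, adjusted p = 0.00171), Col6a6 (-3.74 ± 1.16, adjusted p = 0.0159) and Col11a1 (-3.48 ± 0.814, adjusted p = 0.00169) also passed, at low levels in colon. The Col6a6 call was lost without DSS PBS replicate 6 (-2.97, adjusted p = 0.0756) and without replicates 5 and 6 (-2.32, adjusted p = 0.249), and that of Col4a2 without both replicates (-1.16, adjusted p = 0.0545). Without DSS PBS replicates 5 and 6, 17 passed, 7 of them fibrillar, where 13.9% of all genes did, and Col17a1 was at -0.84 (adjusted p = 0.195).

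Of the 36 collagen genes tested in each tissue, 8 were called lower in skin and higher in colon, that is 22.2%, and 324 of 14477 genes were, that is 2.24%. They were Col1a1, Col1a2, Col3a1, Col5a1, Col5a2, Col5a3, Col24a1 and Col15a1, which are 7 fibrillar chains and 1 multiplexin. Col4a6 was called lower in both tissues, but its colon call was lost without DSS PBS replicates 5 and 6 and with the compared groups alone. Col4a3 was also called lower in both, its colon call partly built in by the filter. None was higher in both, where 4.99% of all genes were. Without skin water replicate 1 the 8 shrank to Col1a2 and Col5a3, and with IMQ PBS replicates 4 to 6 alone to 4 (Col1a1, Col1a2, Col5a3 and Col24a1). Without DSS PBS replicates 5 and 6 there were 5 (Col1a1, Col1a2, Col3a1, Col5a1 and Col5a2).

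For the antibody effects, 1 collagen gene passed the interaction with anti-IL-36R, where 5.14% of all genes tested did, 4.13% positive and 1.01% negative, and 2 with anti-IL-12p40, where 1.87% did, 1.47% positive and 0.398% negative. Col17a1 passed in both, at 3.51 ± 0.763 (adjusted p = 0.00449) and 3.20 ± 0.765 (adjusted p = 0.0169), and without DSS PBS replicate 6 was at 0.92 (adjusted p = 0.232) and 0.61 (adjusted p = 0.596). In skin Col17a1 was at 0.01 with anti-IL-36R and 0.05 with anti-IL-12p40. Col11a1 was at 2.94 ± 0.716 (adjusted p = 0.0199) with anti-IL-12p40, from 1.48 ± 0.516 in skin and -1.49 ± 0.481 in colon, neither of which passed its own test. Skin anti-IL-12p40 replicate 2 held 28 CPM of Col11a1, where the other 6 held 2.16 to 4.88 CPM. Without that library the difference was 2.0 (adjusted p = 0.0785), and without DSS PBS replicate 6 it was 2.69 (adjusted p = 0.0613). Without colon anti-IL-12p40 replicate 7, 4 collagen genes passed.

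Genes that make, process and degrade collagen were read from 7 lists, each count to be set against the 33% of all genes called in skin disease and the 32.2% in colon disease. In skin with imiquimod and PBS, modification and folding genes gave 3 higher and 2 lower of 20, a smaller share than over all genes and with a median log2 fold change of 0.04. Among them were P4hb, the disulfide isomerase subunit of prolyl hydroxylase, which rose by 0.53 ± 0.108 (adjusted p = 0.00123), and P3h3, a prolyl 3-hydroxylase family gene, which fell by 0.61 ± 0.185 (adjusted p = 0.0161). Processing and cross-linking genes gave 0 higher and 2 lower of 12. Both are procollagen N-proteinases, Adamts14 at -1.70 ± 0.266 (adjusted p = 0.000227) and Adamts3 at -1.67 ± 0.348 (adjusted p = 0.00153). Fibril-associated proteoglycans and glycoproteins gave 1 higher and 8 lower of 15, led by Kera (-2.48 ± 0.593, adjusted p = 0.00374), Fmod (-1.51 ± 0.328, adjusted p = 0.00196) and Postn (-1.25 ± 0.25, adjusted p = 0.00113).

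In the same skin contrast, collagen-cleaving enzymes gave 4 higher and 0 lower of 8, with a median log2 fold change of 0.82. These included collagenase Mmp13 at 26.7 ± 25.2 CPM in IMQ PBS skin and 2.18 ± 0.749 CPM in water PBS skin (SD; log2 fold change 3.59 ± 1.19, adjusted p = 0.0252) and Mmp8 at 10.4 ± 2.65 and 1.23 ± 0.787 CPM. Collagen receptors gave 4 higher and 0 lower of 9 with a median of -0.20, so that the count and the median differ in sign, and the 4 included Lair1, an inhibitory receptor of leukocytes, at 2.19 ± 0.333 (adjusted p = 0.000198). Basement membrane partners split, 4 higher and 6 lower of 16. The list of transforming growth factor beta ligands, receptors and targets gave 4 higher and 1 lower of 11.

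In colon with DSS and PBS the lists for making collagen and for cutting it both went up. Processing and cross-linking genes gave 11 higher and 0 lower of 12, with a median log2 fold change of 1.38. Lox, which oxidises lysines for cross-links, was at 135 ± 87.9 CPM in DSS PBS colon and 9.69 ± 1.76 CPM in water PBS colon (SD), a log2 fold change of 3.80 ± 0.503 (adjusted p = 5.16e-06). Modification and folding genes gave 10 higher of 20, with the folding isomerase Fkbp10 at 1.34 ± 0.301 (adjusted p = 0.00152). Collagen-cleaving enzymes gave 7 higher of 8, with Mmp3 at 273 ± 236 CPM in DSS PBS colon and 1.74 ± 0.631 CPM in water PBS colon (log2 fold change 7.28 ± 0.698, adjusted p = 4.78e-07).

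The remaining colon lists were mixed or mainly higher. Fibril-associated proteins gave 6 higher and 1 lower of 14, with Bgn, the proteoglycan biglycan, at 1.69 ± 0.264 (adjusted p = 3.35e-05). Basement membrane partners gave 8 higher and 1 lower of 16, with Lama1 at 3.37 ± 0.395 (adjusted p = 1.40e-06) and Lamc3 at -1.31 ± 0.293 (adjusted p = 0.0015). Receptors gave 3 higher and 2 lower of 10, and the transforming growth factor beta list 7 higher of 11, with Tgfb1 at 1.56 ± 0.256 (adjusted p = 6.15e-05). Without DSS PBS replicates 5 and 6, 2966 of 15731 genes tested were called in either direction. The genes higher were then 6 of 12 for processing, 8 of 20 for modification, 7 of 8 for cleavage and 4 of 14 for fibril-associated proteins. They were 2 of 16 for basement membrane partners, 2 of 10 for receptors and 6 of 11 for the transforming growth factor list. Lox was at 3.23 ± 0.47 (adjusted p = 3.53e-05).

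With the antibodies, collagen-cleaving enzymes had the most calls in colon. Anti-IL-36R against PBS under DSS gave 5 of 8 of them lower, where 1.16% of all genes tested were higher and 5.45% lower. Mmp3 was among them at -3.38 ± 0.463 (adjusted p = 0.000254). Anti-IL-12p40 gave 4 of 8 lower, where 0.0191% of all genes were higher and 1.13% lower, with Mmp3 at -2.38 ± 0.468 (adjusted p = 0.0154). Lox was lower with both, at -1.82 ± 0.387 (adjusted p = 0.00496) and -1.71 ± 0.403 (adjusted p = 0.0368). Of the other lists, anti-IL-36R gave 2 of 20 modification and 1 of 12 processing genes lower. It also gave 2 of 14 fibril-associated and 2 of 11 transforming growth factor list genes lower, 1 of 16 basement membrane partners higher and 1 lower, and none of 10 receptors. Single lower calls in a list lie near the 5.45% over all genes. Anti-IL-12p40 gave 1 of 12 processing and 2 of 11 transforming growth factor list genes lower and none in the other lists. These comparisons share the DSS PBS libraries. Without replicates 5 and 6, anti-IL-36R left 4 of 8 cleaving enzymes lower, where 104 of 15731 genes tested were called. Mmp3 was among them at -2.69 ± 0.436 (adjusted p = 0.00325), and Lox was at -1.23 (adjusted p = 0.188). Anti-IL-12p40 then left no gene of the lists or of any kind called (Mmp3 -1.69, adjusted p = 0.35). In skin, 4.21% of all genes tested were called with anti-IL-36R and 8.8% with anti-IL-12p40. No gene of the 7 lists passed there with anti-IL-36R. With anti-IL-12p40 Postn (0.81 ± 0.206, adjusted p = 0.0183) and the receptor Ddr2 rose and Lama1 (-0.83 ± 0.261, adjusted p = 0.0488) fell.

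The proportions of the type I and III chains were compared by exact 2-sided permutation tests on log2 count ratios, 12 in all, and none passed after Benjamini-Hochberg adjustment. The lowest adjusted p, 0.0693, was shared by 3 tests. Col3a1 to Col1a1 differed by 0.22 between anti-IL-36R and PBS skin under imiquimod (exact p = 0.0117), Col1a2 to Col1a1 by 0.19 in the same comparison (exact p = 0.0163), and Col1a2 to Col1a1 by -0.27 between DSS PBS and water PBS colon (exact p = 0.0173). An adjusted p above the threshold does not show that the proportions were alike.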

How the data were processed

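Messenger RNA purified on Dynabeads was sequenced from strand-specific libraries, per the labels' protocols. The authors deposited 1 table of expected counts per tissue, made with RSEM against mm10, per the submitters' processing notes; versions are not given in the sources used here. Reads that map to more than 1 gene are divided by RSEM, and 16.1% of skin and 16.8% of colon values were not whole (tolerance 1e-06), and 0 columns were left unused. Entrez IDs were matched to RefSeq symbols for 24375 of 24475 IDs.

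Expected counts were rounded and tested in edgeR 4.0.16 (R 4.3.3) with filterByExpr, full library totals, TMM factors and quasi-likelihood F tests. The 4 groups of each tissue shared a model. Factors ran between 0.833 and 1.08 (skin) and between 0.91 and 1.09 (colon). Genes kept numbered 15345 (skin), 15731 (colon) and 16818 (both tissues in a single model), with common biological coefficients of variation of 0.201, 0.29 and 0.26. P-values were adjusted over all genes tested by Benjamini-Hochberg, with a threshold of 0.05. Each SE was obtained as |log2 fold change| divided by √F. CPM are rounded counts per 1000000 of the TMM-adjusted total, and CPM per kb divides by GENCODE M21 exon length. Depth limits precision for genes near 1 CPM. The scripts were tested on simulated data. Ratios were tested with scipy 1.17.1, and figures drawn with matplotlib 3.10.9.

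Values by library are given for up to 8 members per tissue with the largest called change and a mean of at least 1 CPM, for Col1a1, Col1a2, Col3a1, Col4a1 and Col4a2, and for up to 5 called members per antibody contrast and in the disease interaction; from each list, up to 3 genes with the largest called change. The members and lists were chosen with earlier results of these data known. Replicate numbers follow the order of the deposit, and nothing says whether libraries came from separate cages or runs, so p-values measure the spread between these libraries. Alternatives were library totals alone, no filter, DESeq2 1.42.0, limma 3.58.1 voom with sample weights, the compared groups alone, subsets of PBS libraries and each library left out in turn. No protein sequence was used here.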

Additional observations from a re-analysis of the deposited data

Results flagged for a closer look

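Of 79 sets of replicate values, 10 held a library whose gap to its neighbour passed Dixon's critical value, where chance gives about 1 in 20. Skin anti-IL-12p40 replicate 2 was high for Col11a1 (28 CPM), Col4a5 (12.4 CPM) and Col4a6 (9.80 CPM), and its hair follicle markers summed to 2354 CPM, where the other 6 libraries of the group held 17.6 to 53.8 CPM; their part in the 3 collagen values was not tested. Skin anti-IL-36R replicate 5 was high for Col11a1 (5.22 CPM) and Col27a1 (9.29 CPM). In colon, anti-IL-12p40 replicate 7 was high for Col1a1 (1192 CPM) and Col7a1 (18.9 CPM), and anti-IL-36R replicate 7 for Col7a1 (16 CPM) and Col17a1 (2.15 CPM). DSS PBS replicate 6 held 59.5 CPM of Col17a1, with 2666 CPM of keratinocyte markers.

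The disease effect differed between skin and colon, by the interaction test, for 24 collagen chain genes. The differences with the largest size were -4.02 for Col17a1, -3.74 for Col6a6, -3.48 for Col11a1, -3.36 for Col1a1 and -3.09 for Col1a2. The Col6a6 call was lost without DSS PBS replicate 6 (adjusted p = 0.0756) and without replicates 5 and 6 (adjusted p = 0.249), and Col6a6 passed the low-count filter in colon only through its highest group. The Col17a1 call was lost without replicates 5 and 6 (adjusted p = 0.195). The anti-IL-36R effect differed for 1 gene, Col17a1 (3.51), and the anti-IL-12p40 effect for 2, Col17a1 (3.20) and Col11a1 (2.94). Tissue, agent and sample series cannot be told apart in these differences.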

How the results depend on the processing

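For single named genes, 2574 of 2647 alternatives kept the side of the threshold, 65 lost the call and 7 gained it. In 1 a called gene changed sign: Col17a1 with anti-IL-12p40 in colon, at 0.0054 without DSS PBS replicates 5 and 6. A change of sign in a gene called in neither fit was counted as kept. The cause of the changes below was not tested. Collagen genes called in disease against water kept within 1.5 times of the main count in skin except 15 without water replicate 1 (range 15 to 25 over libraries left out; all genes 2884 to 5142), and in colon (18 to 22; all genes 4043 to 5506) except 12 without DSS PBS replicates 5 and 6 (all genes 2966, and 3081 with the compared groups alone). Skin anti-IL-36R gave 4 with voom, 1 and 0 with PBS replicates 1 to 3 and 4 to 6 alone, and 1 to 3 with a library left out; all genes gave 1112 (DESeq2), 2750 (voom), 105 and 58 (PBS subsets) and 303 to 1186. Skin anti-IL-12p40 gave 3 with DESeq2, 3 with voom, 0 and 0 with the PBS subsets, and 1 throughout with a library left out; all genes gave 2674, 437, 233 and 752 to 1815. The antibodies against each other in skin gave 22 genes with DESeq2, 4 with the compared groups alone and 3 to 8. Anti-IL-36R against water skin gave 9 to 23 collagen genes, and 1200 genes with the compared groups alone (706 to 2604); anti-IL-12p40 against water gave 14 with DESeq2 (1 to 12), and 1305 and 470 genes (123 to 1153).

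Colon anti-IL-36R gave 6 with DESeq2, 0 with voom, 0 with the compared groups alone and 0 without DSS PBS replicates 5 and 6 (0 to 11); all genes 453, 432 and 104 (437 to 1776). Colon anti-IL-12p40 gave 0 with library totals alone, 2 with DESeq2 and 0 with voom, compared groups or without replicates 5 and 6 (0 to 4); all genes 119, 355, 0, 0 and 0 (35 to 410). Against water colon, anti-IL-36R gave 14 with voom (2 to 10; all genes 3972, 975 to 1846) and anti-IL-12p40 3 to 11 (all genes 5028 with voom). Without replicates 5 and 6 the interactions gave 2340 genes for disease (2483 to 4577), 0 collagen genes and 135 genes for anti-IL-36R (0 to 1; 354 to 1439; 0 with DESeq2), and 0 and 103 for anti-IL-12p40 (0 to 4; 133 to 482; 489 with DESeq2). The Col1a2 to Col1a1 ratio in anti-IL-36R skin stayed between 0.16 and 0.23. Voom, no filter and compared groups alone were not run for the interactions. With library totals alone the median of all genes was -0.13 in skin disease, -0.20 in the disease interaction and 0.13 in the anti-IL-36R interaction, and the skin split was 1 higher and 21 lower. No paired analysis was possible because replicate numbers follow the order of the deposit and mark no shared animal. Depth limits Col4a3, Col4a4, Col6a6, Col9a3 and Col17a1 in colon, near or under 1 CPM.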
